A study of Homo sapiens with 6 samples.

Results

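The ISG15 conjugation system was read here as 6 genes picked by symbol from the 22807 genes of the deposited table: *ISG15*, *UBA7*, *UBE2L6*, *HERC5*, *HERC6* and *USP18*. All 6 were in the table, and all 6 were among the 12862 genes tested, for which the mean over the 6 libraries had to be 1 or more. In the scrambled siRNA libraries alone 5 of the 6 reached that mean, and *UBA7* passed only through its values in the *DUSP6* siRNA libraries. The cells were MDA-MB-453, an established HER2+ breast cancer line grown in RPMI with fetal bovine serum. The control group, labelled Scrambled with the genotype WT, received negative control siRNA. The other group, labelled DUSP6 Knockdown with the genotype DUSP6 KD, received siRNA against *DUSP6*, whose product is a phosphatase that acts on the ERK kinases. Each group had 3 libraries, and both groups carried a transfected siRNA. The siRNA was delivered with a lipid reagent, and 3 different siRNAs against *DUSP6* and 3 different scrambled controls were in use. With 3 libraries in each group this implies a different siRNA in each library, although the labels do not tie one to a library. The spread within a group may then include that between siRNA products. In any 1 library a response to that siRNA itself and a response to the loss of *DUSP6* cannot be told apart. The paper lists a concentration for the *DUSP6* siRNAs but none for the negative controls. Whether the siRNA dose matched between the groups is thus not known. A difference in dose between the groups cannot be told apart from the loss of *DUSP6*. The p-values measure the spread between these libraries, and the labels do not say whether they came from separate cultures. In bulk RNA, fewer cells with a transcript and less of it per cell cannot be told apart either.

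ISG15 is a small ubiquitin-like protein that type I interferon induces strongly, and cells attach it to newly made host and viral proteins. As with ubiquitin, the modifier is activated by an E1 enzyme (UBA7), passed to an E2 enzyme (UBE2L6) and joined to the substrate by an E3 ligase of the HECT family (HERC5 in human cells, with its close relative HERC6 as the main ligase in mice). The protease USP18 takes the modifier off again, and apart from its catalytic role it binds the interferon receptor chain IFNAR2 and restrains signaling from it. The genes of this cascade are interferon-stimulated genes, many of which carry an interferon-stimulated response element near their start sites.

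The 250 bases before the start site are shown for *ISG15*, the modifier, and for the neighboring genes *HERC5* and *HERC6*, 3 of the genes with the largest increases, whose promoters differed in the motif searched. Sequences are from RefSeq on GRCh38.p14, written 5′ to 3′ on the strand of the gene, which is the forward strand for all 3. Capitals mark each match to GAAANNGAAA, the core of the interferon-stimulated response element, on either strand.
ISG15, chr1:1013247-1013496: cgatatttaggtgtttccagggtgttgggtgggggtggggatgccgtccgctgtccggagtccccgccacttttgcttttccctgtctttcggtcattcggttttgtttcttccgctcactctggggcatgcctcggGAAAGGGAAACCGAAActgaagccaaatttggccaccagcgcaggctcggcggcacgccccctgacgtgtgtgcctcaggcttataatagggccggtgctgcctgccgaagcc
HERC5, chr4:88456869-88457118: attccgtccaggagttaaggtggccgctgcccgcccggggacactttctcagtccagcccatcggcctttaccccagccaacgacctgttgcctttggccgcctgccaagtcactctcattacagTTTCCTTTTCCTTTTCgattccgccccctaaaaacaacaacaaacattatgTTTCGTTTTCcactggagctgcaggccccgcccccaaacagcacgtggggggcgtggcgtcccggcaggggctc
HERC6, chr4:88378602-88378851: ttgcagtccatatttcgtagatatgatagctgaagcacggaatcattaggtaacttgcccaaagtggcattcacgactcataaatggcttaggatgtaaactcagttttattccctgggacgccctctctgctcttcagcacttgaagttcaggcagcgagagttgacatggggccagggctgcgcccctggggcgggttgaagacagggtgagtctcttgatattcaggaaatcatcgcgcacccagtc
The *ISG15* window held 2 matches on the strand of the gene, from 98 to 107 and from 104 to 113 bases before the start, and these matches share bases. In the *HERC5* window 3 matches lay on the opposite strand, from 65 to 74, from 110 to 119 and from 116 to 125 bases before the start, the last pair sharing bases. No match was found in the *HERC6* window or in either of the 2 windows listed for *UBE2L6*, which says only that these letters are not in these bases. The promoter table held 4 of the 6 genes, without *UBA7* and *USP18*. Among all 35116 promoters in it, 1061 (3.02%) had a match in the same 250 bases, and among the 14654 promoters of tested genes 351 (2.40%) did. A match is a description of the sequence, not of a factor bound there.

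A normalized value is a gene's read count divided by the scaled size of its library, times a constant that is the same for all. The libraries held 45546981 to 85729785 reads, and the group medians were 76305430 (scrambled siRNA) and 59802991 (*DUSP6* siRNA). One read was worth between 0.0121 and 0.0202, so that even the lowest value of a member, that of *UBA7* in scrambled siRNA replicate 3, rested on 23 reads. The targeted gene *DUSP6* measured 209, 110 and 114 in control replicates 1 to 3 against 39.4, 24.5 and 35.2 in the knockdown replicates (log2 fold change -2.05, standard error 0.25, limma adjusted p = 3.09e-04). All 7 markers of a luminal HER2+ line were present, with a summed value of 3353 to 4391 with scrambled siRNA and 2686 to 2855 with *DUSP6* siRNA, and *ERBB2* itself had a mean of 984 and 495. Leukocyte markers, 4 of 6 of which were in the table, summed to at most 0.337 with scrambled siRNA and 0.485 with *DUSP6* siRNA, and the 5 endothelial markers to at most 0.747 and 0.566. The fibroblast list, with 4 of 5 in the table, summed to between 80.9 and 105 with scrambled siRNA and between 162 and 192 with *DUSP6* siRNA. *COL1A1* made up most of this sum, with a mean of 92.2 and 173, and *COL3A1* and *LUM* were near 0 in both groups. What part *COL1A1* has in the results was not tested. The defining leukocyte marker *PTPRC* was likewise near 0, at a mean of 0.0170 and 0.0546.

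All 6 genes rose after *DUSP6* siRNA, by between 1.30 and 5.69 on the log2 scale. The ligase genes *HERC5* and *HERC6* rose most, the modifier *ISG15* and the E2 gene *UBE2L6* followed, and the E1 gene *UBA7* and the protease gene *USP18* rose least. Fold changes were differences of group means of log2(value + 1), tested with limma over all genes, and the addition of 1 makes them smaller for genes with low values. The median log2 fold change was 4.18 over the 6 genes and -0.01 over all 12862 genes tested. At an adjusted p under 0.05, 6 of 6 were called higher, where 19.7% of all genes tested were called higher and 24.7% lower. The 6 include *UBA7*, which passed the filter only through the *DUSP6* siRNA libraries. The members were chosen with earlier results of these data known, so the counts describe them only. With the further limit of a log2 fold change above 2, 4 of the 6 were called (*ISG15*, *UBE2L6*, *HERC5* and *HERC6*), against 0.653% of all genes. In all 6, every *DUSP6* siRNA library lay above every scrambled siRNA library, as in 26.7% of the genes tested. A two-sided exact permutation test over the libraries gave p = 0.1 for each of the 6, the smallest p that 3 libraries against 3 allow.

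**Figure D1:**
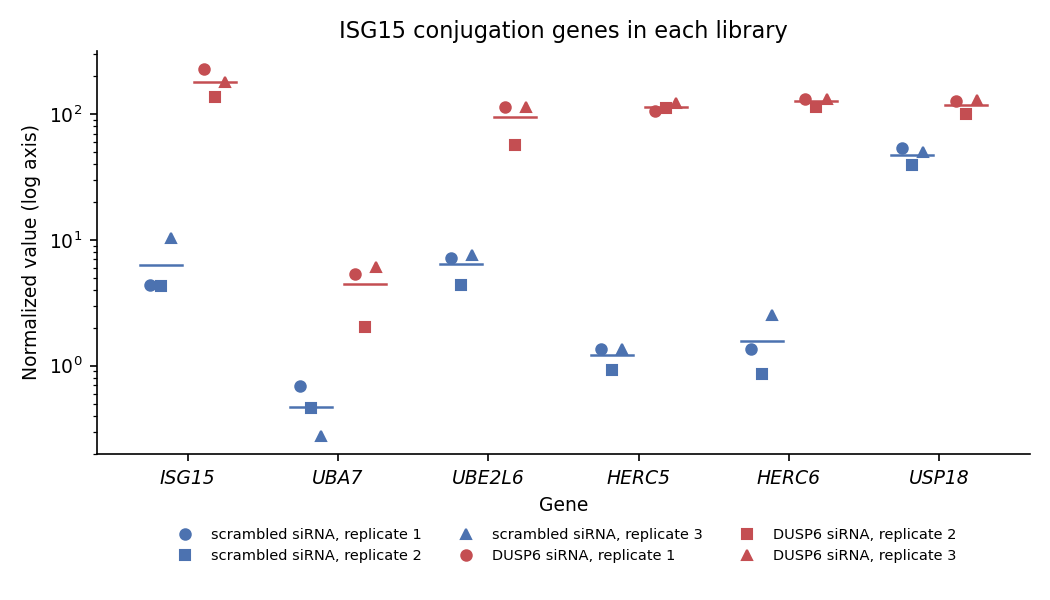
Normalized values (log axis) of the 6 genes in each library, with scrambled siRNA in blue and *DUSP6* siRNA in red, marker shapes for the replicates and bars for the group means. The groups do not overlap for any gene, and *USP18* has the highest scrambled siRNA values, from 39.1 to 53.7.

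*ISG15* (Entrez gene 9636) is found on chromosome 1 (GRCh38) from 1013497 to 1014540 on the forward strand, with 2 exons in its canonical transcript. Its value was 4.36, 4.31 and 10.3 in the controls, given here as replicates 1 to 3, against 228, 135 and 178 after *DUSP6* siRNA. Scrambled siRNA replicate 3 stood above the other two controls, yet the lowest *DUSP6* siRNA library was still 13.1 times as high as that control. The means were 6.32 ± 3.45 (SD, n = 3) and 181 ± 46.2 (SD, n = 3), a ratio of 28.6, and the log2 fold change was 4.70 (standard error 0.29, adjusted p = 9.07e-06). This was the 18th largest increase among the genes tested.

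*UBA7* (Entrez gene 7318), the E1 gene, lies on chromosome 3 from 49805209 to 49813953 on the reverse strand and has 24 exons. It had the lowest values of the 6, at 0.684, 0.460 and 0.277 with scrambled siRNA and 5.38, 2.04 and 6.07 with *DUSP6* siRNA. *DUSP6* siRNA replicate 2 was well below the other two, at 2.98 times the highest control library. The recovered reads were 46, 24 and 23 in the control libraries and 266, 167 and 393 after *DUSP6* siRNA. The means were 0.474 ± 0.204 (SD, n = 3) and 4.50 ± 2.15 (SD, n = 3), a ratio of 9.49, with a log2 fold change of 1.82 (standard error 0.28, adjusted p = 0.00111). The size of this change depended on the constant added before taking logs, and it was 2.92 with 0.1 added and 3.29 in edgeR's test on the recovered reads.

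*UBE2L6* (Entrez gene 9246), the gene of the E2 enzyme, is on chromosome 11 from 57551662 to 57567935 on the reverse strand, with 4 exons. Values of 7.24, 4.39 and 7.58 were measured in the scrambled siRNA libraries and 115, 56.9 and 115 in the *DUSP6* siRNA libraries. In both groups replicate 2 was the lowest library, and the groups stayed apart by a factor of 7.51. The mean was 6.40 ± 1.75 (SD, n = 3) against 95.4 ± 33.3 (SD, n = 3), a ratio of 14.9, and the log2 fold change was 3.66 (standard error 0.28, adjusted p = 2.50e-05).

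*HERC5* (Entrez gene 51191) and *HERC6* (Entrez gene 55008), the ligase genes, lie side by side on the forward strand of chromosome 4, *HERC6* from 88378852 to 88443097 and *HERC5* from 88457119 to 88506163, each with 23 exons. *HERC5* was low in the controls at 1.37, 0.920 and 1.36 and reached 105, 111 and 123 after *DUSP6* siRNA. The 3 *DUSP6* siRNA libraries were close to each other and at least 76.9 times as high as any control. Group means were 1.22 ± 0.257 (SD, n = 3) and 113 ± 8.88 (SD, n = 3), a ratio of 92.9 and a log2 fold change of 5.69 (standard error 0.12, adjusted p = 6.03e-08). *HERC6* measured 1.35, 0.862 and 2.53 in the controls and 133, 114 and 131 after *DUSP6* siRNA. As for *ISG15*, scrambled siRNA replicate 3 was the highest control, and the lowest *DUSP6* siRNA library was 45.1 times as high as it. The mean of *HERC6* was 1.58 ± 0.857 (SD, n = 3) and 126 ± 10.3 (SD, n = 3), a ratio of 79.7, with a log2 fold change of 5.67 (standard error 0.21, adjusted p = 4.29e-07). These 2 increases ranked 9 and 10 among all genes tested.

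*USP18* (Entrez gene 11274), the protease gene, lies on chromosome 22 from 18150170 to 18177397 on the forward strand, with 11 exons. Its values of 53.7, 39.1 and 50.0 in the scrambled siRNA libraries were the highest control values of the 6 genes, and it reached 127, 99.4 and 129 in the *DUSP6* siRNA libraries. The groups did not overlap, but the lowest *DUSP6* siRNA library was no more than 1.85 times the highest control. Means of 47.6 ± 7.57 (SD, n = 3) and 118 ± 16.5 (SD, n = 3), gave a ratio of 2.49 and a log2 fold change of 1.30 (standard error 0.14, adjusted p = 1.80e-04). The value of *USP18* is uncertain, because 957 of the 1809 windows of 50 bases in its canonical transcript (52.9%) also occur in transcripts of other genes. Its near copy *USP41* held 478 of these windows (26.4%). *USP41* was 3.50, 2.15 and 3.01 in the controls and 8.65, 6.65 and 8.45 after *DUSP6* siRNA (log2 fold change 1.21, standard error 0.16, adjusted p = 4.44e-04). Of the other members, *HERC6* shared 30 of 3727 windows with *HERC3* (0.805%) and the remaining 4 shared none. Exons of a pseudogene on the opposite strand cover 4.15% of the exon bases of *ISG15*, and the microRNA gene *MIR5193* covers 2.40% of those of *UBA7*.

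The libraries of the *DUSP6* siRNA group were not equally high. Measured as the difference of log2(value + 1) from the scrambled siRNA mean, *UBE2L6* stood at 4.00, 3.00 and 3.99 in *DUSP6* siRNA replicates 1 to 3, a range of 1.00. The range over these libraries was 1.22 for *UBA7* and 0.75 for *ISG15*, but 0.37 for *USP18* and 0.22 for each ligase gene. *DUSP6* siRNA replicate 2 was the lowest of its group for 5 of the 6 genes, the exception being *HERC5*, where replicate 1 was lowest. Among the 2540 genes called higher, replicate 2 was the lowest for 451 (17.8%) and replicate 1 for 1282 (50.5%). The same library had the lowest *DUSP6* value, 24.5, and its siRNA product cannot be told apart from its other differences. In the controls, replicate 1 was the highest for 3 genes and replicate 3 for 3, and *ISG15* in replicate 3 stood 0.72 above the control mean. Leaving out *DUSP6* siRNA replicate 2 lowered the number of genes called higher from 2540 to 1535 and leaving out replicate 3 lowered it to 1686, and all 6 genes were called without any 1 of the libraries.

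**Figure D2:**
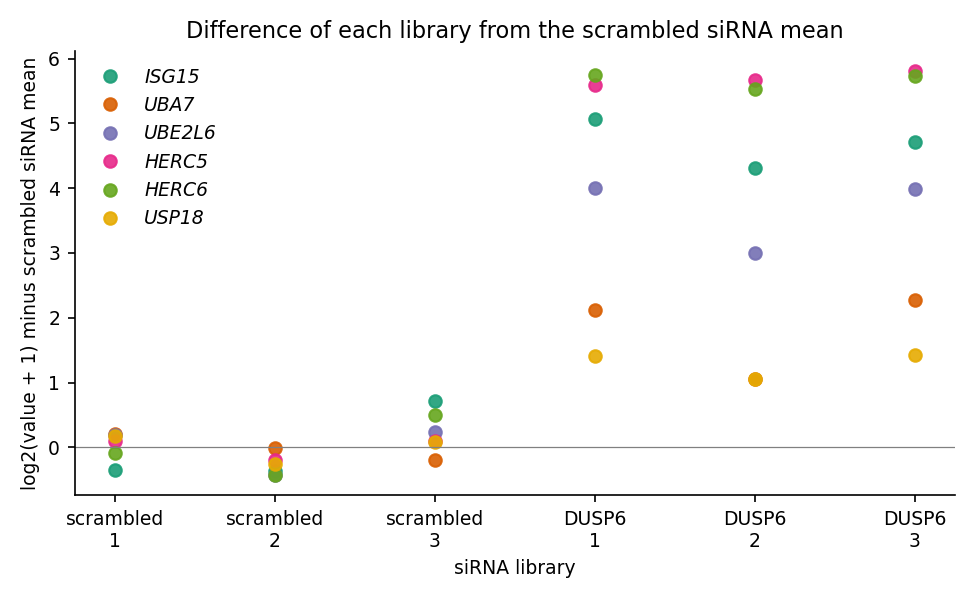
Difference of log2(value + 1) from the mean of the 3 scrambled siRNA libraries (vertical axis) in each of the 6 libraries (horizontal axis), with a color for each gene. Control points lie within 0.72 of 0, *HERC5* and *HERC6* lie between 5.53 and 5.81 in the *DUSP6* siRNA libraries, and *UBE2L6*, *UBA7* and *ISG15* are lowest in replicate 2.

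Since the genes rose by different amounts, the ratio of each to *ISG15* was compared between the groups within libraries. Relative to the modifier, *USP18*, *UBA7* and *UBE2L6* were lower in every *DUSP6* siRNA library than in any control, and the ligase genes were higher. The log2 ratio of *USP18* to *ISG15* was 2.81 ± 0.60 (SD, n = 3) in the controls and -0.58 ± 0.22 (SD, n = 3) after *DUSP6* siRNA, which differ by -3.40, and that of *UBA7* to *ISG15* differed by -2.88. The ratio of *UBE2L6* differed by -1.03, while those of *HERC5* and *HERC6* were higher by 0.99 and 0.97. None of the 5 ratios overlapped between the groups. That of *HERC5* came close, at -1.18 in scrambled siRNA replicate 1 and -1.11 in *DUSP6* siRNA replicate 1. Each ratio gave p = 0.1 in the two-sided exact permutation test (0.1 after Benjamini-Hochberg adjustment over the 5), the smallest value possible. All 5 share *ISG15* as the denominator and are not independent. Each difference equals the gene's log2 fold change minus that of *ISG15*. With 0.1 in place of 1 added before taking logs, the differences were -3.59 for *USP18*, -1.98 for *UBA7*, -1.06 for *UBE2L6*, 1.54 for *HERC5* and 1.44 for *HERC6*.

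Levels of different genes were compared per kilobase of the canonical transcript in GENCODE 44, which is 637 bases long for *ISG15*, 3304 for *UBA7*, 1219 for *UBE2L6*, 3511 for *HERC5*, 3776 for *HERC6* and 1858 for *USP18*. With scrambled siRNA the protease transcript was the most abundant of the 6, at 25.6 ± 4.07 per kilobase (SD, n = 3). It was followed by *ISG15* at 9.93 ± 5.41, *UBE2L6* at 5.25 ± 1.44, *HERC6* at 0.419 ± 0.227, *HERC5* at 0.347 ± 0.0733 and *UBA7* at 0.143 ± 0.0617. Of these neighbors in the order, only *HERC6* and *HERC5* overlapped, although the lowest *ISG15* library (6.77) was close to the highest *UBE2L6* library (6.22). After *DUSP6* siRNA the modifier came first at 283 ± 72.5 per kilobase (SD, n = 3). The E2 transcript *UBE2L6* was at 78.3 ± 27.3, *USP18* at 63.7 ± 8.87, *HERC6* at 33.4 ± 2.73, *HERC5* at 32.2 ± 2.53 and *UBA7* at 1.36 ± 0.652. In this order *UBE2L6* and *USP18* overlapped, and so did the ligase genes. As a share of the summed level per kilobase of the 6 genes, *USP18* made up 53.3% to 67.8% in the control libraries and 11.6% to 14.2% after *DUSP6* siRNA, and *ISG15* made up 16.0% to 32.1% and 54.4% to 61.0%. The reads that *USP18* may share with its copies enter these shares.

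**Figure D3:**
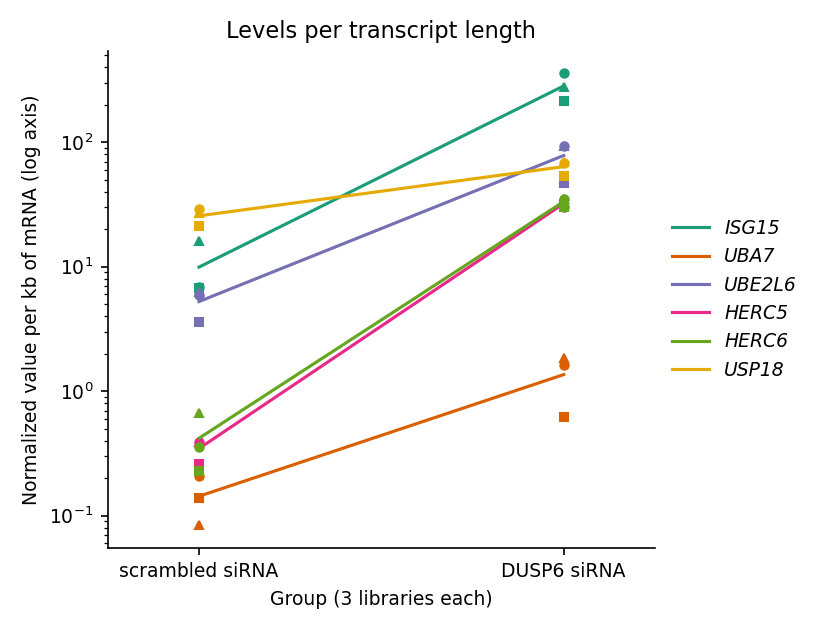
Normalized value per kilobase of canonical transcript (log axis) in the 2 groups, with a marker shape for each replicate (circle 1, square 2, triangle 3) and lines joining the group means. *USP18* leads with scrambled siRNA at 25.6, *ISG15* leads after *DUSP6* siRNA at 283, and *UBA7* is the lowest in both groups.

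The nearest tested genes on the chromosome had log2 fold changes of -0.41 to 1.63, each closer to 0 than that of the member beside it. At the chromosome 4 locus, *HERC3*, a related HECT gene 17.7 kb beyond *HERC5*, had a mean of 38.5 ± 4.84 (SD, n = 3) in the controls and 38.1 ± 3.54 (SD, n = 3) after *DUSP6* siRNA (log2 fold change -0.01, standard error 0.12, adjusted p = 0.943). On the other side of the pair, *PPM1K*, the gene of a mitochondrial phosphatase 94.3 kb before *HERC6*, rose by 1.63 (standard error 0.13, adjusted p = 3.06e-05). Both neighbors of *ISG15* rose as well, the transcription factor gene *HES4* by 1.08 (standard error 0.17, adjusted p = 0.00105) and the proteoglycan gene *AGRN* by 1.18 (standard error 0.13, adjusted p = 1.71e-04). *TRAIP*, beside *UBA7*, fell (log2 fold change -0.41, adjusted p = 0.0165). *IP6K1* (0.11), *TIMM10* (-0.19), *CLP1* (0.31), *TUBA8* (-0.12) and *TMEM191B* (0.07) were not called.

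**Figure D4:**
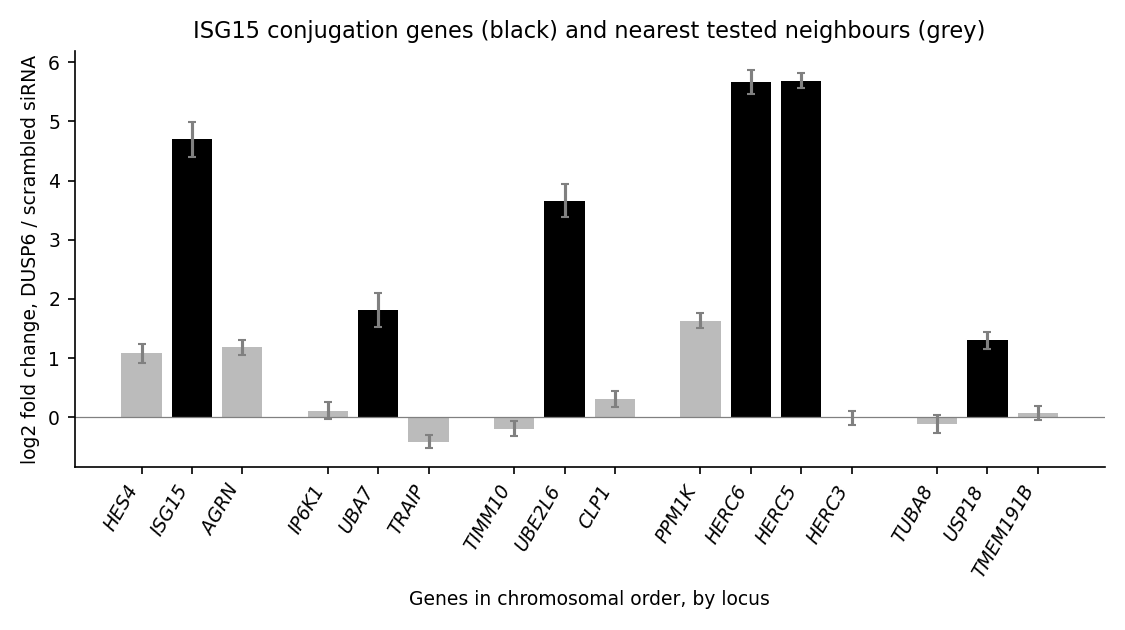
Log2 fold change (bar) and its standard error (whisker) of the 6 genes in black and of the nearest tested gene on each side in grey, in chromosomal order within each of the 5 loci. *HERC3* stands at -0.01 beside *HERC5* at 5.69, and the tallest grey bar is *PPM1K* at 1.63.

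In the enzyme families of the members, the other genes had a median change close to that of all genes tested. Here 124 of 133 listed modifiers, E1 enzymes, E2 enzymes, HECT ligases and USP proteases were tested, with 30 higher (24.2%), 18 lower (14.5%) and 76 not called, where 19.7% of all genes tested were higher and 24.7% lower. Their log2 fold changes had a median of 0.02 and ran from -0.99 to 1.21. The upper end of that range was *USP41*, which shares sequence with *USP18*, and the lowest member, *USP18*, was at 1.30. Fewer genes of the families were called higher without a *DUSP6* siRNA library, namely 18, 15 and 15 without replicates 1, 2 and 3, and 11 were called lower without replicate 1 or without replicate 3. Under quantile normalization the split was 42 higher and 11 lower.

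For each family below, the shares over all genes tested were 19.7% called higher and 24.7% called lower. Among 12 other tested modifiers, 3 rose and none fell. Among those that rose were *FAU* (0.36), which encodes a ubiquitin-like protein fused to a ribosomal protein, and *SUMO2* (0.29). Of 9 other E1 genes, *ATG7* (0.48) and the alternative ubiquitin E1 gene *UBA6* (0.30) rose and the SUMO E1 subunit gene *SAE1* (-0.29) fell. Of 33 other E2 genes 4 rose and 6 fell, with *UBE2D4* (-0.88), *UBE2E3* (0.77) and *UBE2C* (-0.61) the most changed and *UBE2W* (0.43), *UBE2O* (0.42) and *UBE2B* (0.31) the remaining increases. *UBE2L3*, the closest relative of *UBE2L6*, fell, with means of 212 ± 24.0 (SD, n = 3) in the controls and 172 ± 5.85 (SD, n = 3) after *DUSP6* siRNA (log2 fold change -0.29, adjusted p = 0.0413). Of 23 other HECT ligases 3 rose, among them *HACE1* (0.51) and *SMURF1* (0.42), and 2 fell, *WWP1* (-0.99) and *HERC1* (-0.38), a larger gene of the HERC group. The other USP proteases, the longest of these lists, had 18 called higher (38.3%) and 9 lower (19.1%) of 47. The most changed were *USP41* (1.21), *USP11* (1.13) and *USP3* (-0.82). *USP41* is annotated as a transcribed pseudogene in GENCODE 44. Because it shares sequence with *USP18*, its value may include reads of *USP18*, which was not tested.

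**Figure D5:**
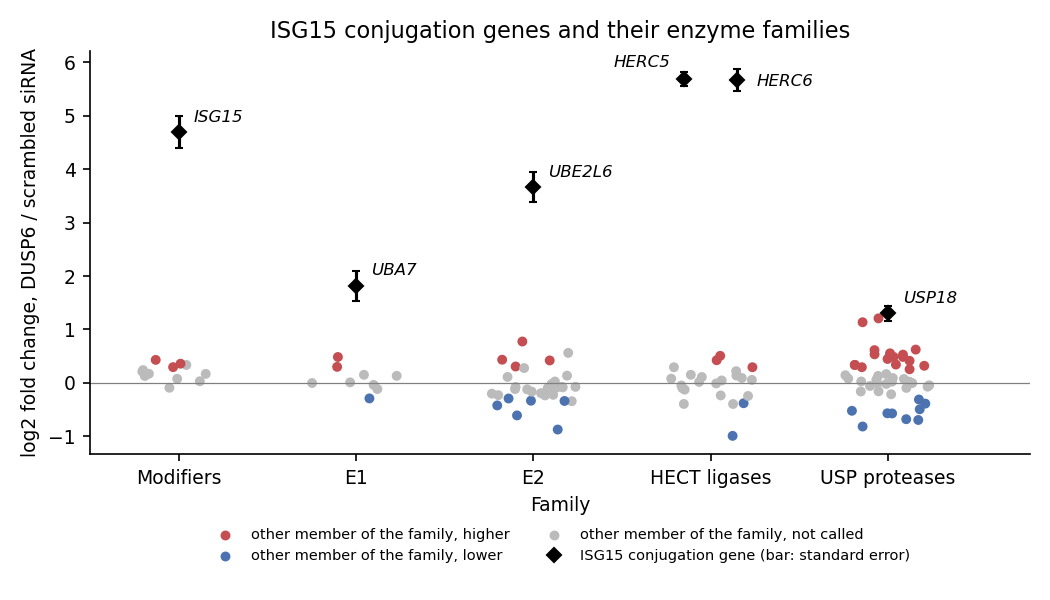
Log2 fold change of the 6 genes (black diamonds, bars for the standard error) and of the other tested genes of their families (points, red higher, blue lower, grey not called at an adjusted p of 0.05). Points are spread sideways for legibility. The other family genes lie between -0.99 and 1.21, the upper value being that of *USP41*, which shares sequence with *USP18*. The 6 members have higher log2 fold changes, with *USP18* at 1.30 next to the upper end of that range and *UBA7* following at 1.82 (standard error 0.28).

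Other genes of the pathway were taken from lists of ISG15 ligases, proteases, USP18 partners, receptors, transcription factors and conjugated proteins. Of 34 genes 33 were tested, 17 rose (51.5%, against 19.7% of all genes tested), 5 fell (15.2%, against 24.7%) and 11 were not called, with a median log2 fold change of 0.24. The count of genes that rose was 11 without *DUSP6* siRNA replicate 2. Of the ligases reported outside the HERC family, *TRIM25* rose, from a mean of 73.8 ± 7.43 (SD, n = 3) up to 111 ± 12.2 (SD, n = 3), by 0.59 (log2, adjusted p = 0.00317). *ARIH1* was at 49.6 ± 11.1 (SD, n = 3) and 36.9 ± 1.32 (SD, n = 3) and was not called (-0.39, adjusted p = 0.0679). Of 4 other proteases reported to act on ISG15, *USP21* (0.48) and *USP5* (0.33) rose, and *USP14* (0.08) and *USP16* (0.06) were not called.

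Of the partners of USP18, *STAT2*, which recruits it to the receptor, rose by 1.51, and *IFNAR2*, the receptor chain it binds, rose by 0.45. *SKP2*, which targets USP18 for degradation, was at 0.13 and not called. Among the 6 transcription factors of interferon-stimulated genes, 5 rose, among them *IRF9* at 3.70, *IRF7* at 2.71, *IRF1* at 2.24 and *STAT2* at 1.51. *IRF3*, which is activated by phosphorylation, was at 0.17 and not called. The integrin LFA-1 is a receptor of secreted ISG15, and its subunit gene *ITGAL* fell, from a mean of 2.05 ± 0.523 (SD, n = 3) down to 0.249 ± 0.143 (SD, n = 3), with a log2 fold change of -1.28 (adjusted p = 2.44e-04). *ITGAL* passed the filter only through the scrambled siRNA libraries, and its *DUSP6* siRNA values rested on 20, 18 and 8 reads. The other subunit gene, *ITGB2*, was below the level for testing.

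Genes of proteins known to carry ISG15 both rose and fell. Of 20 such genes 9 rose, 4 fell and 7 were not called (19.7% of all genes tested rose and 24.7% fell), with a median of 0.20. The largest increases were those of *IFIT1* (7.19), which binds foreign RNA, and *DDX58* (4.35), the gene of the RNA sensor RIG-I. Among those that fell were the ERK1 gene *MAPK3* (-0.75), the cyclin gene *CCND1* (-0.61) and the replication clamp gene *PCNA* (-0.57).

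The genes most like each member over the 6 libraries were found by the root mean square difference of log2(value + 1) from the scrambled siRNA mean, as a description only. *ISG15* was closest to *CMPK2* (0.305), *HLA-B* (0.313) and *SAMD9* (0.342). *UBE2L6* was closest to the interferon lambda gene *IFNL1* (0.206), *OAS3* (0.211) and *PARP14* (0.281). The interferon beta gene *IFNB1* (0.202) came first for *UBA7*, before *ETV7* (0.209) and *RAET1L* (0.259). *IFNB1* had a mean of 0.0451 in the controls and 3.31 after *DUSP6* siRNA, and *IFNL1* a mean of 0.0579 and 12.9. *HERC5* and *HERC6* differed from each other by 0.222, and outside the members both were nearest to *IFI27* (0.320 and 0.162) and *DDX60* (0.331 and 0.162). *USP18* was nearest to *USP41* (0.0716), with which it shares sequence, then to *LAP3* (0.0836) and *BACE2* (0.111). The control means of *IFNB1*, *IFNL1*, *ETV7*, *RAET1L*, *CMPK2*, *SAMD9*, *IFI27* and *BACE2* were below 1. Like *UBA7*, these genes passed the filter only through the *DUSP6* siRNA libraries. Adding 1 before taking logs narrows the spread of such low control values, so that likeness rests more on the size of the rise.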

How the data were processed

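RNA from 6 MDA-MB-453 libraries was prepared by the authors with a stranded TruSeq kit and sequenced on an Illumina NovaSeq. By the study's methods the reads were aligned to hg38 with Rsubread 2.0.0 and assigned to RefSeq gene models at default settings, and the authors deposited normalized signal values on a linear scale, with a column for each library. edgeR and bcl2fastq are also named in the submitters' processing notes. Every value above 0 was a whole multiple of 1 step per library (100% within 0.01 read), which gave back the reads, and the steps matched edgeR's TMM scaling. Over the genes as a whole, replicates of a group differed by more than counting error. Chi-square per gene between 2 libraries was 70.4 to 212 within the scrambled siRNA group and 6.87 to 26.8 within the *DUSP6* siRNA group. The largest values, 212 and 173, were those of the pairs with scrambled siRNA replicate 3. Counting error weighs more where reads are few, as for *UBA7* in the controls, with 46, 24 and 23 reads. Genes were tested where their mean over the libraries was 1 or more, with limma 3.58.1 (R 4.3.3, eBayes with a trend) on log2(value + 1), with Benjamini-Hochberg adjustment over all 12862 genes and calls at an adjusted p under 0.05. Ratios were tested by exact permutation with SciPy. The scripts were tested on simulated data with 200 changed genes and the same spread in both groups. That setting differs from the unequal spread and many more calls here, so it does not show how the tests perform on these data. No 2 libraries of a group were alike within sampling noise.

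The members and the gene lists were chosen with earlier results of these data known. Named were all members, *DUSP6*, up to 3 called genes of each list with the largest change, *UBE2L3*, *HERC3*, *USP41*, *TRIM25*, *ARIH1*, the nearest tested neighbors and the 3 genes most like each member. *IRF1*, *IRF3*, *SKP2*, *MAPK3*, *CCND1*, *PCNA*, the other calls named within short lists, the named markers and the comparison of the lowest library were added after their values were seen. Some genes that this rule names are not reported here. Gene positions and promoters are from RefSeq on GRCh38.p14 (22359 of 22807 gene IDs matched), exons and transcripts from GENCODE 44. A pseudocount of 0.1, other filters and scalings, a replicate block, eBayes without a trend, edgeR 4.0.16, DESeq2 1.42.0 and leaving out each library were tried as alternatives.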

Additional observations from a re-analysis of the deposited data

How the results depend on the processing

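All 6 genes of the ISG15 system and *DUSP6* kept their direction and their call under each alternative in which they were tested. *UBA7* could not be tested with a mean value of at least 10, where 5 of the 6 were called, and 4 of the 6 passed a log2 fold change above 2. Over the settings other than leaving out a library, the log2 fold change ran from 4.70 to 4.91 for *ISG15*, 1.65 to 3.29 for *UBA7*, 3.66 to 3.93 for *UBE2L6*, 5.68 to 6.55 for *HERC5*, 5.66 to 6.35 for *HERC6* and 1.30 to 1.40 for *USP18*. Leaving out 1 library at a time gave 4.51 to 5.06, 1.59 to 2.20, 3.45 to 4.00, 5.59 to 5.74, 5.46 to 5.92 and 1.17 to 1.42 in the same order, and the largest adjusted p over all alternatives was 0.00638, for *UBA7*. The differences in the ratios to *ISG15* kept their sign throughout.

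Counts over many genes moved more. With a mean value of at least 10, where 9562 genes were tested, 1639 genes were called higher, and under quantile normalization 42 genes of the enzyme families were called higher and 11 lower, in place of 30 and 18. Without 1 library, 1535 to 3213 of all genes were called higher, 11 to 18 other pathway genes were called higher, and of the enzyme families 15 to 32 were called higher and 11 to 23 lower. Without a library fewer samples entered the fit. The highest counts over all genes, 3213 higher and 3578 lower, came without scrambled siRNA replicate 3. No cause of these shifts was tested. Over all genes tested, the deviations of same-numbered libraries were at most weakly correlated (0.0050, 0.0868 and -0.0764 for replicates 1 to 3). With the replicate block all 6 members were called, and 2495 genes were called higher and 3096 lower over all genes, in place of 2540 and 3179. The block lowered the standard error of every member but *HERC5*, for *UBE2L6* from 0.28 to 0.13 and for *ISG15* from 0.29 to 0.21. For *HERC5* it rose from 0.12 to 0.13, and for *DUSP6* it fell from 0.25 to 0.14. Whether same-numbered libraries belong together is thus not settled. Same-numbered libraries did not always correlate best.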
